A study of Rattus norvegicus with 9 samples.

Results

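The 10 transcripts described here encode enzymes of glycolysis: Hk1, Hk2, Gpi, Pfkl, Pfkp, Aldoa, Pgk1, Eno1, Pkm and Ldha. They were chosen by name, as the rows of the deposited gene table with exactly these symbols, and all 10 of them were found among the 22324 genes of the table and passed the filter on low counts, as did 14956 genes in all. Poly(A) RNA of primary wild-type rat nucleus pulposus cells, which sit in the soft centre of the spinal disc, was sequenced in 9 libraries, 3 in each of 3 groups, from cultures in high-glucose medium with 10% serum. The BNPMT group had received doxorubicin and an intervention called BNPMT, a name that the labels do not expand and for which they give no dose or timing. The SEN group had received doxorubicin alone, a DNA-damaging drug, at 200 nM for 24 h with 6 further days in fresh medium. The NC group is read here as untreated, going by its title and the series' design text, because the same doxorubicin protocol is attached to every sample, NC included. The labels give neither the number of animals or cultures nor the passage, and p-values then measure only how far these libraries spread, a spread that may be technical.

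Glycolysis splits glucose into pyruvate in the cytosol and yields ATP without oxygen. Hexokinases trap glucose as glucose 6-phosphate, glucose-6-phosphate isomerase and phosphofructokinase turn it into fructose 1,6-bisphosphate, and aldolase cleaves this into triose phosphates. Phosphoglycerate kinase and pyruvate kinase make the ATP of the lower pathway, enolase works between them, and lactate dehydrogenase A reduces pyruvate to lactate, which regenerates NAD+. The nucleus pulposus has no blood supply of its own, and its cells are known to rely largely on this pathway. Many of its genes are textbook targets of the hypoxia-inducible factors, whose binding sites share the core ACGTG or GCGTG.

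Promoters were available in RefSeq (build GRCr8, 250 bases before to 50 after each start) for 9 of the 10 genes, with 13 promoters in all. Those of Ldha and Hk2 are shown because Ldha had the largest change of the 10 in BNPMT against NC and Hk2 the largest in SEN against NC and in BNPMT against SEN. Capitals mark every ACGTG or GCGTG on either strand, a CACGTG counting as 2 matches because it reads the same on both strands. The Ldha promoter lies at chr1:106507842-106508141 on the plus strand and the Hk2 promoter at chr4:116841226-116841525 on the minus strand, both written 5′ to 3′ along the gene.
Ldha: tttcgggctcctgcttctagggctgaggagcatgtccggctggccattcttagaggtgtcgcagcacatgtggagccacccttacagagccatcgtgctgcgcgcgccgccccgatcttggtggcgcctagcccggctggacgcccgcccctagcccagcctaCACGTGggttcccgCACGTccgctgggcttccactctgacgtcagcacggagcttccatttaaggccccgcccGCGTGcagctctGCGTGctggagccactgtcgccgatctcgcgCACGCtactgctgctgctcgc
Hk2: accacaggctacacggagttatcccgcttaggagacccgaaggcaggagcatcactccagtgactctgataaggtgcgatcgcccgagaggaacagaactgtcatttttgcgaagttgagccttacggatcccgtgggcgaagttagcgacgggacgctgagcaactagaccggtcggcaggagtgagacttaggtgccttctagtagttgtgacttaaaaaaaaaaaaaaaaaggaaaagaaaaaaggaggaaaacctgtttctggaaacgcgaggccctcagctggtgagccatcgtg
The Ldha stretch held 6 matches, a CACGTG among them, and the Hk2 stretch held 0. The bases G and C made up 66.7% of the Ldha stretch and 51.0% of the Hk2 stretch. Their median share was 59.7% over promoters of tested genes, and the matches were not adjusted for it. At least 5 matches were found in 2.55% of the 13988 promoters of tested genes. Of the 9 genes with a promoter, 7 had at least 1 match in 1 of their promoters, and 8 of the 13 promoters (61.5%) held one, against 57.6% of the promoters of tested genes. The exceptions were Hk2 and Pkm, and Pfkl and Pfkp each had 2 matches. A match describes letters in this window, and no binding was measured.

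Measured in whole libraries of 31206834 to 41971877 counted reads, the 10 transcripts made up 0.709% to 0.764% of all counts in BNPMT, 0.376% to 0.406% in SEN and 0.366% to 0.370% in NC. Levels are given as FPKM (reads scaled to the length of the transcript and the total count of the library) or CPM (reads scaled to that total alone). Changes are given as log2 ratios with their SE and an adjusted p, from edgeR's quasi-likelihood test with TMM scaling over all tested genes, where a gene was called at an adjusted p below 0.05. The scale matters here, because TMM factors were 1.12 to 1.15 in BNPMT, 0.797 to 0.805 in SEN and 1.10 in each NC library. With total counts as the scale, the median change of all tested genes was -0.46 in SEN against NC, 0.52 in BNPMT against SEN and 0.055 in BNPMT against NC, whereas under TMM these medians were -0.013, 0.017 and 0.0047. FPKM and CPM follow the total-count scale, so a level and a TMM change can differ in direction, and total-count changes are given beside such members. In bulk RNA, fewer cells of a type and less RNA per cell cannot be told apart.

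In SEN against NC, 8 of the 10 transcripts were called higher and 2 lower under TMM, where 37.6% of all tested genes were called higher and 38.5% lower. With total counts the calls were 6 higher and 3 lower (all tested genes: 24.5% and 56.9%), since Eno1 turned lower and Pkm lost its call. In BNPMT against SEN, 7 were called higher and 2 lower (all tested genes: 40.7% and 39.9%), and with total counts 8 were higher and 1 lower (57.3% and 25.8%). In BNPMT against NC, 9 were called higher and 1 lower (26.3% and 26.5%), and with total counts 9 were higher and 0 lower (30.2% and 22.5%). The median log2 change of the 10 under TMM was 0.65 in SEN against NC, 0.33 in BNPMT against SEN and 0.95 in BNPMT against NC. On the CPM scale, 6 of the 10 lay wholly above NC in SEN and 3 wholly below (all tested genes: 25.3% and 58.1%), 8 lay above and 1 below in BNPMT against SEN (57.3% and 25.2%), and 9 lay above and 0 below in BNPMT against NC (35.3% and 26.4%). The 3 comparisons share libraries in pairs, so they are not independent of each other.

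**Figure D1:**
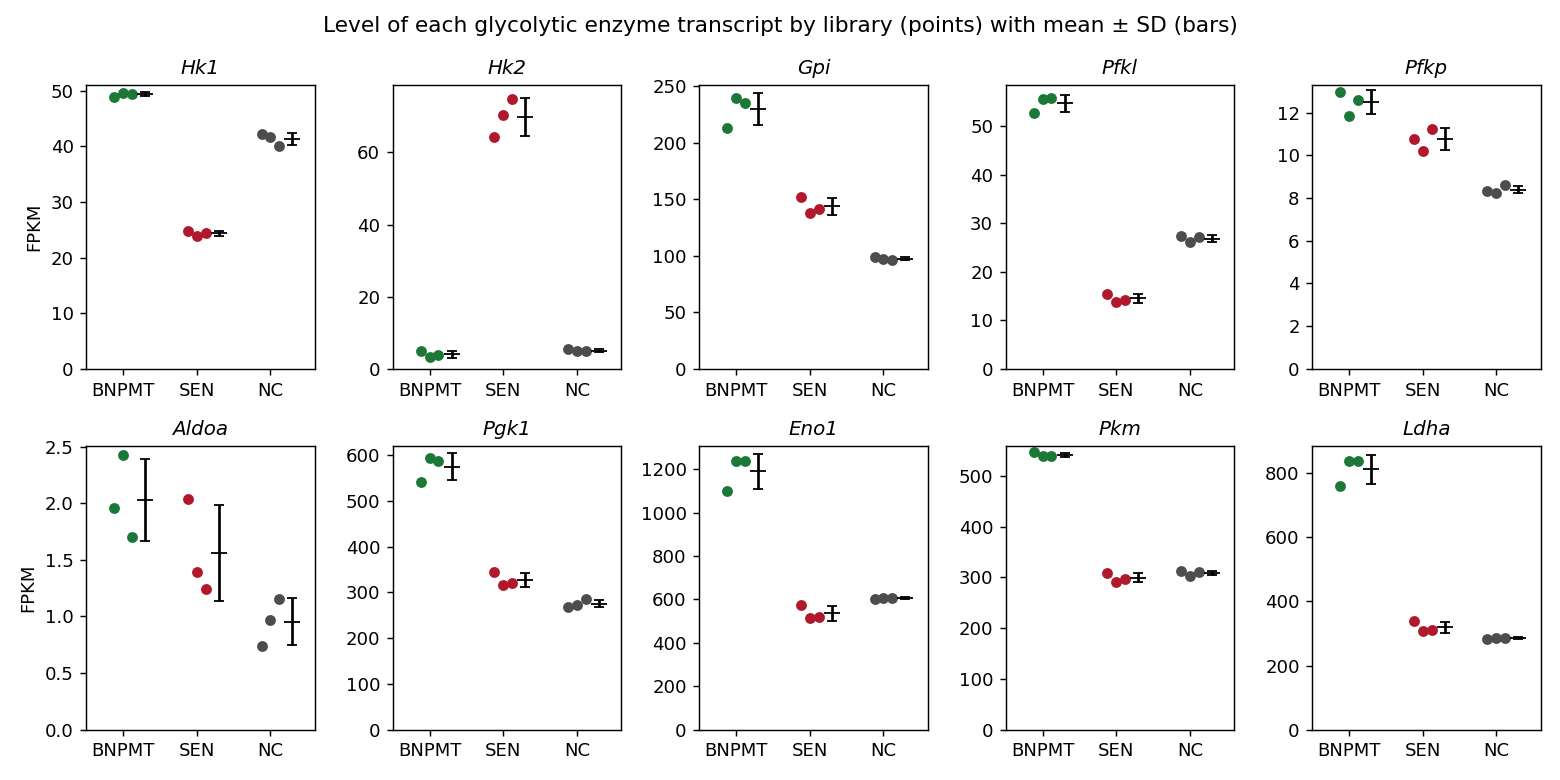
FPKM of each of the 10 transcripts (1 panel each, linear axis from 0) in every library of BNPMT, SEN and NC, with the mean and SD of 3 libraries as bars beside the points. Hk2 stands at or below 5.06 FPKM in BNPMT, at 64.4 to 74.8 FPKM in SEN and at or below 5.45 FPKM in NC. On this scale Hk1, Gpi, Pfkl, Pfkp, Pgk1, Eno1, Pkm and Ldha are highest in BNPMT, with no overlap with the other groups.

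The hexokinases, which open the pathway, differed in direction in the comparisons with SEN. Hk1, the widely expressed hexokinase, stood at 48.9, 49.7 and 49.5 FPKM in BNPMT, at 24.8, 23.8 and 24.4 FPKM in SEN and at 42.2, 41.7 and 40.1 FPKM in NC. The 3 groups did not overlap, with SEN lowest and BNPMT highest. Hk1 was called lower in SEN against NC (log2 change -0.31 ± 0.05, edgeR adjusted p = 6.28e-05) and higher in BNPMT against SEN (0.52 ± 0.05, adjusted p = 3.65e-07) and against NC (0.20 ± 0.05, adjusted p = 0.00349). Hk2, the inducible hexokinase of muscle, fat and many tumours, ran the opposite way. Its levels were 5.06, 3.23 and 3.90 FPKM in BNPMT, 64.4, 70.4 and 74.8 FPKM in SEN, and 5.45, 4.91 and 4.84 FPKM in NC. All SEN libraries lay far above the rest, and the ranges of BNPMT and NC overlapped. The log2 change of Hk2 was 4.24 ± 0.12 in SEN against NC (18.9-fold, edgeR adjusted p = 1.44e-12) and -4.60 ± 0.12 in BNPMT against SEN (adjusted p = 7.13e-13). Its difference between BNPMT and NC was small (log2 change -0.37 ± 0.12, adjusted p = 0.0204) and rested on the scale and on single libraries. That call ended with total counts (adjusted p = 0.0515), with limma on FPKM (adjusted p = 0.0697 and 0.0583 with 1 and 0.1 added), and without NC library 1 (0.0823), BNPMT library 2 (0.0757) or BNPMT library 3 (0.0661).

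A ratio of isoenzymes within a library does not depend on the scale. It can still hold part of a library's trend with transcript length, which was not taken out of the ratios. The FPKM ratio of Hk2 to Hk1 was 0.103, 0.0651 and 0.0788 in BNPMT, 2.59, 2.95 and 3.06 in SEN, and 0.129, 0.118 and 0.120 in NC. Hk2 thus held 6.11% to 9.36% of the summed level of the pair in BNPMT, 72.2% to 75.4% in SEN and 10.5% to 11.4% in NC. The log2 ratio differed by 4.55 ± 0.08 in SEN against NC, by -5.15 ± 0.21 in BNPMT against SEN and by -0.60 ± 0.20 in BNPMT against NC (difference ± SE). The groups did not overlap in any of the 3 comparisons. Each gave p = 0.1 in an exact two-sided permutation test, the smallest p that 3 against 3 libraries allow, and 0.1 after Benjamini-Hochberg adjustment over the 9 ratio tests made here.

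Gpi, the isomerase that turns glucose 6-phosphate into fructose 6-phosphate, stood at 213, 239.8 and 235.5 FPKM in BNPMT, at 152, 138 and 141 FPKM in SEN and at 98.6, 97.4 and 96.3 FPKM in NC. The groups were ordered BNPMT, SEN, NC with no overlap. Gpi was called higher in SEN against NC (log2 change 1.01 ± 0.06, edgeR adjusted p = 4.32e-09) and in BNPMT against NC (1.19 ± 0.06, adjusted p = 1.96e-08). In BNPMT against SEN its change was 0.17 ± 0.06 (adjusted p = 0.0198) under TMM and 0.68 with total counts. The call in BNPMT against SEN ended in 8 of the 20 alternatives, with DESeq2's size factors (adjusted p = 0.122), in DESeq2 (0.135), with a filter of 1 CPM (0.0556), in a fit of these 2 groups alone (0.0710), and without SEN library 2 (0.0716), SEN library 3 (0.0646), BNPMT library 2 (0.0679) or BNPMT library 3 (0.0583).

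Phosphofructokinase, the main control point of the pathway, is a tetramer of liver, platelet and muscle type subunits. Pfkl, the liver type subunit, stood at 52.7, 55.5 and 55.7 FPKM in BNPMT, at 15.5, 13.8 and 14.2 FPKM in SEN and at 27.4, 26.0 and 27.1 FPKM in NC. SEN was lowest and BNPMT highest with no overlap. Pfkl was called lower in SEN against NC (log2 change -0.43 ± 0.06, edgeR adjusted p = 1.97e-05), higher in BNPMT against SEN (1.41 ± 0.06, adjusted p = 9.57e-11) and higher in BNPMT against NC (0.98 ± 0.06, adjusted p = 7.52e-08). It had the largest rise of the 10 in BNPMT against SEN. Pfkp, the platelet type subunit, stood at 12.98, 11.86 and 12.61 FPKM in BNPMT, at 10.8, 10.2 and 11.3 FPKM in SEN and at 8.32, 8.26 and 8.59 FPKM in NC. Its levels were thus ordered BNPMT, SEN, NC on the total-count scale. Pfkp was called higher in SEN against NC (log2 change 0.81 ± 0.06, edgeR adjusted p = 1.56e-08) and in BNPMT against NC (0.52 ± 0.06, adjusted p = 9.62e-06). In BNPMT against SEN it was called lower under TMM (-0.29 ± 0.06, adjusted p = 0.000328) and higher with total counts (0.22, adjusted p = 0.00365) and after taking out each library's trend with transcript length (0.12, adjusted p = 0.0475), so its direction there depends on the scale.

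The ratio of Pfkp to Pfkl, free of the scale but not of the trend with transcript length, was 0.246, 0.214 and 0.226 in BNPMT, 0.695, 0.738 and 0.792 in SEN, and 0.304, 0.317 and 0.317 in NC. The transcripts differ in length (6364 bases for Pfkp and 2958 for Pfkl), and the part of that trend in the ratio was not tested. The platelet type subunit weighed most in SEN and least in BNPMT, with no overlap. The log2 ratio differed by 1.24 ± 0.06 in SEN against NC, by -1.70 ± 0.08 in BNPMT against SEN and by -0.45 ± 0.06 in BNPMT against NC (each exact permutation p = 0.1 and adjusted 0.1). Pfkm, the muscle type subunit, averaged 48.6 ± 0.637 CPM in BNPMT, 33.5 ± 0.758 CPM in SEN and 35.9 ± 1.45 CPM in NC (SD, n = 3 each). It was called higher in BNPMT against NC (log2 change 0.39) and, under TMM, in SEN against NC (0.35, but -0.10 with total counts).

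**Figure D2:**
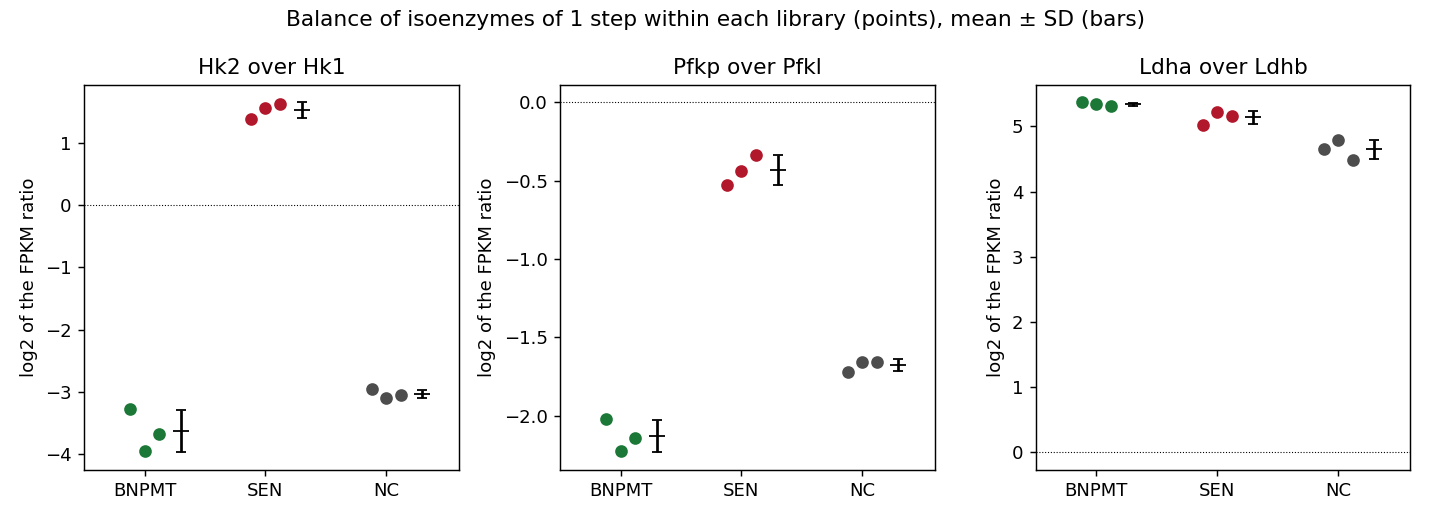
Log2 ratio of FPKM of Hk2 over Hk1, Pfkp over Pfkl and Ldha over Ldhb in each library of BNPMT, SEN and NC, with mean and SD of 3 libraries as bars and a dotted line at equal levels. The hexokinase ratio is above equal levels in the 3 SEN libraries (2.59 to 3.06) and below them in the other 6 (at most 0.129).

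Aldoa, the aldolase of muscle and most other tissues, was counted at a low level in these libraries. It stood at 1.96, 2.42 and 1.70 FPKM in BNPMT, at 2.04, 1.39 and 1.25 FPKM in SEN and at 0.738, 0.967 and 1.16 FPKM in NC, which came from 41 to 137 reads a library. BNPMT and SEN overlapped, and each lay above NC. Aldoa was called higher in SEN against NC (log2 change 1.16 ± 0.24, edgeR adjusted p = 0.000601) and in BNPMT against NC (1.02 ± 0.23, adjusted p = 0.00249). Between BNPMT and SEN its change was -0.14 ± 0.23 under TMM (adjusted p = 0.588), 0.37 with total counts and 0.13 without SEN library 1, none of them called. In RefSeq on GRCr8, a later build than that of the counts, the Aldoa gene lies wholly within an uncharacterized protein-coding gene, LOC103691235 (2 to 35 reads a library here), and 9 pseudogenes carry its name. Pseudogenes are also named there for Eno1 (31), Ldha (30), Pkm (19) and Pgk1 (8), and for none of the other 5. How reads of overlapping genes or of several places were handled is not stated in the sources used here. The levels of these 5 genes are therefore uncertain to that extent, and the part of such reads in them was not tested.

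The lower pathway held the most abundant members. Pgk1, the phosphoglycerate kinase that makes the first ATP of the lower pathway, stood at 541, 594 and 588 FPKM in BNPMT, at 344, 315 and 320.3 FPKM in SEN and at 269, 273 and 285 FPKM in NC. Its groups did not overlap. Pgk1 was called higher in SEN against NC (log2 change 0.70 ± 0.06, edgeR adjusted p = 1.12e-07), in BNPMT against SEN (0.31 ± 0.06, adjusted p = 0.000234) and in BNPMT against NC (1.01 ± 0.06, adjusted p = 4.86e-08). Eno1, alpha-enolase, was the highest of the 10 in each group, with 1098, 1236 and 1236 FPKM in BNPMT, 575, 513 and 519 FPKM in SEN and 603, 609 and 608 FPKM in NC. Every BNPMT library lay far above the rest, and SEN lay slightly below NC on this scale. Eno1 was called higher in BNPMT against SEN (log2 change 0.65 ± 0.07, edgeR adjusted p = 5.30e-07) and against NC (0.92 ± 0.07, adjusted p = 2.51e-07). In SEN against NC it was called higher under TMM (0.27 ± 0.06, adjusted p = 0.0016), called lower with total counts (-0.18, adjusted p = 0.0137) and not called once the trend with length was removed (0.05, adjusted p = 0.284).

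Pkm encodes the muscle and M2 forms of pyruvate kinase, which this gene-level table does not separate. Its levels were 547, 538 and 538 FPKM in BNPMT, 308, 291 and 297 FPKM in SEN, and 312, 303 and 311 FPKM in NC. SEN and NC overlapped, and every BNPMT library lay above them. Pkm was called higher in BNPMT against SEN (log2 change 0.35 ± 0.05, edgeR adjusted p = 8.84e-06) and against NC (0.76 ± 0.05, adjusted p = 7.54e-08). In SEN against NC it was called higher under TMM (0.41 ± 0.05, adjusted p = 2.46e-06) and not with total counts (-0.05, adjusted p = 0.347).

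Ldha, which makes lactate, stood at 759.6, 838 and 838 FPKM in BNPMT, at 339, 308 and 309.8 FPKM in SEN and at 283, 287 and 287 FPKM in NC. BNPMT stood apart from both other groups, and SEN lay a little above NC. The log2 change of Ldha was 1.46 ± 0.06 in BNPMT against NC (2.75-fold, edgeR adjusted p = 3.34e-09), the largest of the 10 in that comparison. It was also called higher in BNPMT against SEN (0.85 ± 0.06, adjusted p = 1.55e-08) and in SEN against NC (0.61 ± 0.06, adjusted p = 5.18e-07), where total counts gave 0.16 (adjusted p = 0.0172). Ldhb, the subunit of heart that favours the way from lactate to pyruvate, averaged 28.4 ± 2.02 CPM in BNPMT, 12.9 ± 1.60 CPM in SEN and 16.2 ± 1.74 CPM in NC (SD, n = 3 each). In SEN against NC Ldhb was not called under TMM (0.12) and was called lower with total counts (-0.33). The FPKM ratio of Ldha to Ldhb was 41.3, 40.4 and 40.0 in BNPMT, 32.6, 37.4 and 35.8 in SEN, and 25.2, 27.7 and 22.5 in NC. Ldha outweighed Ldhb in every library, most in BNPMT and least in NC. The log2 ratio differed by 0.49 ± 0.10 in SEN against NC, by 0.20 ± 0.06 in BNPMT against SEN and by 0.70 ± 0.09 in BNPMT against NC (each exact permutation p = 0.1 and adjusted 0.1).

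Rows that resemble 4 of these genes were counted separately, and were looked for after the values had been seen. RGD1562690, described as similar to the LDH-A chain, had 6.46% of the reads of Ldha in BNPMT, 6.69% in SEN and 6.46% in NC. LOC100362738, an M2 pyruvate kinase-like row, had 13.4% of the reads of Pkm in BNPMT, 15.9% in SEN and 16.4% in NC. Shares were below 1% for the row like Pgk1 (0.372% to 0.574%) and for an Eno1 pseudogene (0.0419% to 0.0745%). The levels of Ldha and Pkm are therefore uncertain by what was split off in counting, and that share moved little between groups for Ldha.

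**Figure D3:**
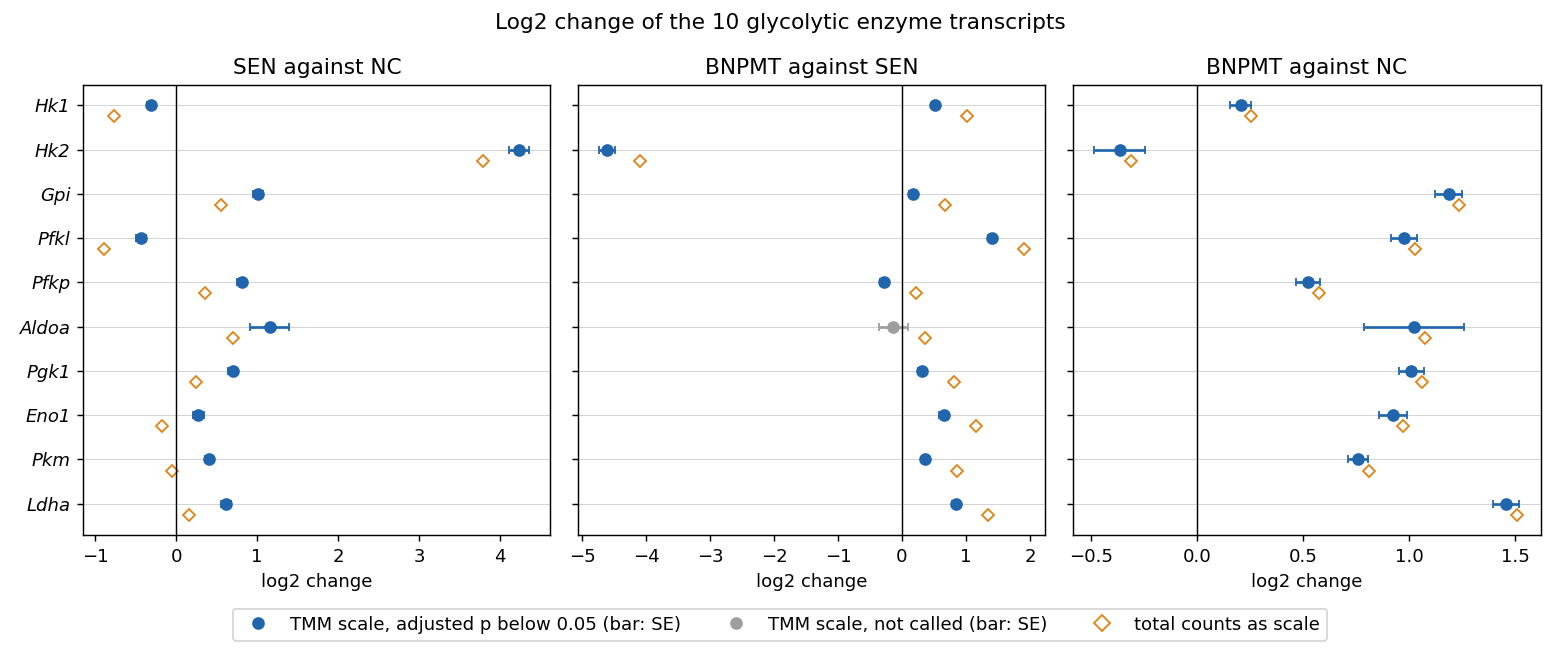
Log2 change of the 10 transcripts in SEN against NC, BNPMT against SEN and BNPMT against NC (1 panel each, own axis), with circles for TMM scaling (bar: SE; blue if the adjusted p is below 0.05) and open diamonds for total counts. The diamonds lie on the other side of 0 from the circles for Eno1 and Pkm in SEN against NC and for Pfkp and Aldoa in BNPMT against SEN.

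Ordered by mean FPKM, Eno1 led and Aldoa came last in each group. Hk2 was the member that changed place most, with the 9th place in BNPMT, the 6th in SEN and the 9th in NC. Among all 22324 genes it ranked 8062 in BNPMT, 991 in SEN and 7495 in NC, whereas Eno1 ranked 71, 157 and 119 in the same order of groups. Neighbours in the order whose ranges overlapped were Pgk1 and Pkm in BNPMT, Pgk1 and Ldha as well as Ldha and Pkm in SEN, and Ldha and Pgk1 in NC. The mean centred profile of the 10 over the 9 libraries was compared with every other gene at 20 CPM or more on average. Pdpn (podoplanin), Cdv3, Gpx3, Vegfb and Myl12b were the nearest of 7061 genes compared, with root mean square differences of 0.048 to 0.082 on the log2 scale, where the median gene differed by 0.52. The members themselves differed from their mean profile by 0.12 (Pfkp) to 1.94 (Hk2), and Pfkl (0.66) also lay beyond the median gene, so the mean describes Hk2 and Pfkl poorly. Hk2, with means of 4.06 FPKM in BNPMT and 69.9 FPKM in SEN, enters the mean and lowers it in BNPMT against SEN. In that comparison the mean profile, and the genes nearest to it, therefore do not stand for most of the members. Of the 5 nearest genes, Gpx3 had a log2 change of 0.04 in BNPMT against SEN and the other 4 had changes of -0.14 to -0.04 under TMM, where the median of the 10 members was 0.33.

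Lists of neighbouring genes are given by their counts, to be read against the shares of all tested genes called higher and lower: under TMM 37.6% and 38.5% in SEN against NC, 40.7% and 39.9% in BNPMT against SEN, and 26.3% and 26.5% in BNPMT against NC, and with total counts 24.5% and 56.9%, 57.3% and 25.8%, and 30.2% and 22.5%. Of steps and isoenzymes outside the 10, with 14 tested of 19 listed, 8 were called higher and 0 lower in SEN against NC, 6 higher and 4 lower in BNPMT against SEN, and 9 higher and 1 lower in BNPMT against NC. With total counts the calls were 6 higher and 4 lower in SEN against NC, where the median change was 0.13 and not 0.58 as under TMM, and 10 and 2 in BNPMT against SEN. Tpi1, triosephosphate isomerase, averaged 701 ± 41.6 CPM in BNPMT, 394 ± 20.3 CPM in SEN and 245 ± 3.02 CPM in NC (SD, n = 3 each), and was called higher in each comparison (log2 changes 1.14 in SEN against NC, 0.33 in BNPMT against SEN and 1.47 in BNPMT against NC). Gapdh, which makes the NADH of the pathway, averaged 2409.6 ± 98.7 CPM in BNPMT, 1479 ± 66.8 CPM in SEN and 1281 ± 17.7 CPM in NC, and was also called higher in each (0.66, 0.20 and 0.86 in the same order of comparisons). Eno2, the enolase of neurons, was called higher in SEN against NC (0.86) and in BNPMT against NC (0.50), and lower in BNPMT against SEN under TMM (-0.36), a sign that turned with total counts (0.15).

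Enzymes that set fructose 2,6-bisphosphate, the strongest activator of phosphofructokinase, split. Of 5 tested, 1 was called higher and 1 lower in SEN against NC, 2 and 1 in BNPMT against SEN, and 2 and 1 in BNPMT against NC, where total counts gave 1 and 4 in SEN against NC and 4 and 1 in BNPMT against SEN. Pfkfb3, the inducible enzyme that makes it, averaged 26.9 ± 1.51 CPM in BNPMT, 114 ± 3.28 CPM in SEN and 38.05 ± 0.630 CPM in NC (SD, n = 3 each). It was called higher in SEN against NC (log2 change 2.03) and lower in BNPMT against SEN (-2.58) and in BNPMT against NC (-0.55). Like Hk2, Pfkfb3 was highest in SEN. Its BNPMT libraries lay below NC with no overlap, whereas those groups overlapped for Hk2. Pfkfb2 was not called under TMM in any comparison (-0.21, 0.16 and -0.04). It was called lower in SEN against NC (-0.66) and higher in BNPMT against SEN (0.67) with total counts, and higher in BNPMT against NC (0.29) with the trend with length removed. Tigar, a phosphatase that degrades fructose 2,6-bisphosphate, was called higher in BNPMT against NC (0.37). In SEN against NC it was not called under TMM (0.17) and was called lower with total counts (-0.29), and in BNPMT against SEN it was not called under TMM (0.20) and was called higher with total counts (0.70).

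Among transporters of glucose and lactate, the lactate carriers Slc16a1 and Slc16a3 were called in opposite directions in SEN against NC and in BNPMT against SEN. Of 10 tested, 5 were called higher and 5 lower in SEN against NC, 5 and 4 in BNPMT against SEN, and 3 and 3 in BNPMT against NC. Total counts gave 3 and 5, 5 and 3, and 3 and 1 in the same order of comparisons. Slc2a1 (GLUT1, the basal glucose carrier) had 101, 102 and 98.5 CPM in BNPMT, 239, 232 and 238 CPM in SEN and 64.8, 67.1 and 64.1 CPM in NC. Slc16a1 (MCT1, a carrier of lactate and pyruvate) had 62.6, 57.8 and 56.1 CPM in BNPMT, 417, 476 and 427 CPM in SEN and 62.2, 65.1 and 64.0 CPM in NC. Both were highest in SEN, and BNPMT lay above NC for Slc2a1 while its range met that of NC for Slc16a1. Slc16a3 (MCT4, known for lactate export from highly glycolytic cells) had 54.1, 56.7 and 53.6 CPM in BNPMT, 0.938, 1.22 and 0.820 CPM in SEN and 4.23, 4.45 and 4.90 CPM in NC. It was highest in BNPMT and lowest in SEN, with no overlap. The log2 changes in SEN against NC, BNPMT against SEN and BNPMT against NC were 2.31, -1.74 and 0.57 for Slc2a1, 3.24, -3.41 and -0.17 for Slc16a1, and -1.75, 5.29 and 3.54 for Slc16a3, all called. Bsg (basigin), the chaperone of both lactate carriers, was called in each comparison as well (1.04, -0.71 and 0.33).

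Beyond pyruvate, 14 genes of its entry into mitochondria gave 9 higher and 4 lower calls in SEN against NC, 5 and 6 in BNPMT against SEN, and 6 and 1 in BNPMT against NC. On the scale of total counts these were 3 and 6, 9 and 3, and 6 and 1. The phosphatases that switch pyruvate dehydrogenase on were among the widest changes. Pdp2 averaged 32.2 ± 1.17 CPM in BNPMT, 207 ± 17.1 CPM in SEN and 24.6 ± 0.934 CPM in NC, and Pdp1 averaged 21.7 ± 1.87, 90.6 ± 2.06 and 20.3 ± 0.561 CPM in the same order (SD, n = 3 each). Pdk4, a kinase that switches the complex off, averaged 1.21 ± 0.505 CPM in BNPMT, 16.8 ± 1.51 CPM in SEN and 0.982 ± 0.192 CPM in NC. All 3 were called higher in SEN against NC (log2 changes 3.53, 2.61 and 4.55) and lower in BNPMT against SEN (-3.19, -2.56 and -4.28), so genes with opposite actions on the complex moved the same way. Pdpr, a regulator of the phosphatase, was called lower in SEN against NC (-1.70), higher in BNPMT against SEN (1.28) and lower in BNPMT against NC (-0.42).

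The pentose phosphate pathway, which draws on glucose 6-phosphate to make NADPH and ribose, had 8 tested genes, of which 5 were called higher and 3 lower in SEN against NC, 4 and 2 in BNPMT against SEN, and 5 and 1 in BNPMT against NC. With total counts it had 2 and 3 calls in SEN against NC and 6 and 0 in BNPMT against SEN. H6pd, the enzyme of the endoplasmic reticulum, averaged 27.4 ± 1.23 CPM in BNPMT, 6.67 ± 0.224 CPM in SEN and 35.2 ± 0.669 CPM in NC (SD, n = 3 each), and was called lower in SEN against NC (log2 change -1.94), higher in BNPMT against SEN (1.53) and lower in BNPMT against NC (-0.41). Pgd was called higher in SEN against NC (0.60) and in BNPMT against NC (0.58). Tkt, transketolase, was called higher in SEN against NC (0.83) and in BNPMT against NC (0.37), and lower in BNPMT against SEN under TMM (-0.46, but 0.04 with total counts). Of 5 tested genes of gluconeogenesis, 3 were called higher and 1 lower in SEN against NC, 1 and 2 in BNPMT against SEN, and 1 and 1 in BNPMT against NC, and total counts gave 1 and 3, 3 and 2, and 1 and 1. Pck2, the mitochondrial enzyme that makes phosphoenolpyruvate, averaged 127 ± 6.21 CPM in BNPMT, 60.5 ± 3.41 CPM in SEN and 196 ± 2.62 CPM in NC, and was called lower in SEN against NC (-1.24), higher in BNPMT against SEN (0.57) and lower in BNPMT against NC (-0.67). Pc, pyruvate carboxylase, was called higher in BNPMT against NC (0.25) and, under TMM, in SEN against NC (0.25, but -0.20 with total counts).

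Glycogen metabolism, which stores glucose 6-phosphate, gave 4 higher and 4 lower calls of 12 in SEN against NC, 6 and 3 in BNPMT against SEN, and 5 and 1 in BNPMT against NC. As for all tested genes, the split moved with the scale, and total counts gave 1 higher and 9 lower in SEN against NC, and 10 and 1 in BNPMT against SEN. Pygm, the muscle glycogen phosphorylase that releases stored glucose, had 0.741, 0.484 and 0.334 CPM in BNPMT, 54.0, 51.0 and 56.5 CPM in SEN and 0.550, 0.198 and 0.478 CPM in NC. Its log2 change was 7.50 ± 0.19 in SEN against NC and -7.18 ± 0.18 in BNPMT against SEN. Gys1, the glycogen synthase outside liver, averaged 89.3 ± 3.36 CPM in BNPMT, 21.4 ± 1.02 CPM in SEN and 78.8 ± 1.97 CPM in NC (SD, n = 3 each), with changes of -1.43 and 1.56 in the same comparisons. Pgm1, which links glycogen to glucose 6-phosphate, changed by -0.83, 1.60 and, in BNPMT against NC, 0.77. Ugp2 was called higher in SEN against NC (0.56) and in BNPMT against NC (0.17), and lower in BNPMT against SEN under TMM (-0.39, but 0.11 with total counts).

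The hexosamine and serine branches leave glycolysis at fructose 6-phosphate and at 3-phosphoglycerate. Of 10 tested genes, 4 were called higher and 5 lower in SEN against NC, 3 and 5 in BNPMT against SEN, and 2 and 6 in BNPMT against NC, and with total counts 4 and 6, 6 and 4, and 4 and 5. Uap1, which makes UDP-N-acetylglucosamine, averaged 144 ± 4.52 CPM in BNPMT, 441 ± 12.7 CPM in SEN and 97.7 ± 2.52 CPM in NC (SD, n = 3 each), with log2 changes of 2.63 in SEN against NC, -2.11 in BNPMT against SEN and 0.51 in BNPMT against NC. Gfpt2, an entry enzyme of the hexosamine branch, changed by 2.63 and -2.47 in SEN against NC and BNPMT against SEN, and Oga, which removes O-GlcNAc from proteins, by 1.20 and -0.95. Pgm3, which acts between Gfpt2 and Uap1, moved the other way (-0.81 and 0.97).

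Regulators of glycolytic genes were mixed, with 5 called higher and 4 lower of 15 in SEN against NC, 3 and 8 in BNPMT against SEN, and 4 and 6 in BNPMT against NC. With total counts the calls were 3 and 8 in SEN against NC and 8 and 5 in BNPMT against SEN, as the split over all genes also moved. Myc, a transcription factor known to activate many glycolytic genes, averaged 30.7 ± 1.62 CPM in BNPMT, 220.0 ± 5.77 CPM in SEN and 61.2 ± 1.64 CPM in NC (SD, n = 3 each). It was called higher in SEN against NC (log2 change 2.30) and lower in BNPMT against SEN (-3.35) and in BNPMT against NC (-1.05). Epas1, which encodes HIF-2 alpha, averaged 10.9 ± 1.52 CPM in BNPMT, 83.1 ± 2.68 CPM in SEN and 11.7 ± 1.11 CPM in NC, with changes of 3.28 in SEN against NC and -3.42 in BNPMT against SEN. Hif1a, which encodes HIF-1 alpha, was more abundant and differed less. It averaged 198 ± 25.9 CPM in BNPMT, 252 ± 33.2 CPM in SEN and 236 ± 10.2 CPM in NC. The Hif1a range of SEN (222 to 288 CPM) overlapped those of NC (229 to 248 CPM) and BNPMT (181 to 228 CPM). Egln1, an oxygen sensor that marks HIF proteins for destruction, was called higher in SEN against NC (0.54) and in BNPMT against NC (0.60). The lists themselves were not tested. Of the genes named outside the 10, some lost their call under at least 1 of the 20 alternatives: Tigar, Slc16a1, Bsg, Pdpr, H6pd, Pc and Ugp2 in BNPMT against NC (highest adjusted p 0.0582 to 0.345), Tkt and Ugp2 in BNPMT against SEN (0.461 and 0.102), and Pfkm, Pc, Ugp2 and Egln1 in SEN against NC (0.113 to 0.178).

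**Figure D4:**
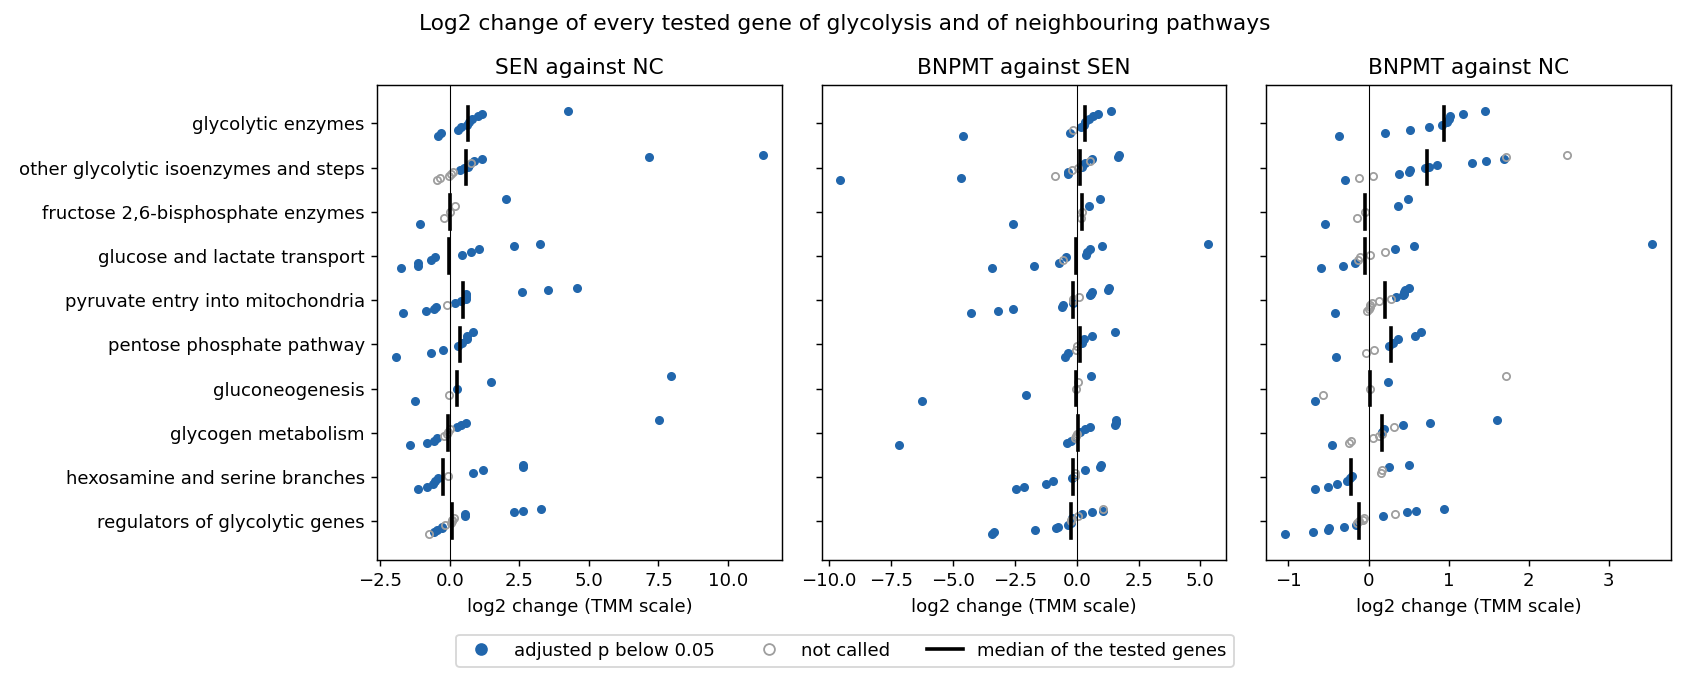
Log2 change under TMM of every tested gene of the glycolytic enzymes and of 9 neighbouring lists in SEN against NC, BNPMT against SEN and BNPMT against NC (own axis for each panel), with filled points for an adjusted p below 0.05, open points for genes not called and a black bar at the median. In BNPMT against NC the medians of the glycolytic enzymes (0.95) and of the other glycolytic isoenzymes and steps (0.73) lie to the right of the other lists, and in SEN against NC Pygm of the glycogen list lies at 7.50. The farthest points of the isoenzyme and gluconeogenesis lists in the panels with SEN are Ldhc, Pklr and Pck1, which had 0 reads in NC and at most 2 in BNPMT, so their fitted positions depend on the prior count and are no measure of size.

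Markers of the labelled cell type and of other cells moved between the groups as well. Of the nucleus pulposus and chondrocyte markers, Col2a1 and Acan were abundant, while Krt18, Krt19 and the notochordal Tbxt had 20, 117 and 21 reads over all 9 libraries. The summed level of 12 such markers was 2567 to 2790 CPM in BNPMT, 7380 to 7513 CPM in SEN and 5444 to 5712 CPM in NC. Most of it was Col2a1 (means of 1962, 6492 and 4571 CPM in the same order). Pax1 (149, 52.7 and 135 CPM), Car3 (129, 79.7 and 175 CPM) and Foxf1 (29.2, 17.1 and 30.6 CPM) were lowest in SEN. Of the 10 tested, 7 were called higher and 3 lower in SEN against NC under TMM (all tested genes: 37.6% and 38.5%). The summed level of 9 annulus and fibroblast markers was 27957 to 33798 CPM in BNPMT, 50397 to 52394 CPM in SEN and 54561 to 56518 CPM in NC, and that of 8 smooth muscle and myofibroblast markers was 2780 to 3020 CPM, 1531 to 1712 CPM and 4826 to 4871 CPM in the same order. Col1a1 was the largest part of the annulus sum (means of 13039, 30516 and 30449 CPM), while Thy1 averaged 617, 186 and 506 CPM and Dcn 69.5, 181 and 71.6 CPM. Under TMM, 6 of these 9 annulus markers were called higher and 2 lower in SEN against NC. Their summed CPM, which follows the total-count scale, was lower in SEN, and total-count calls are not given for these lists. Of the 8 smooth muscle markers, 1 was called higher and 7 lower in SEN against NC. In BNPMT against SEN, 3 nucleus pulposus markers were called higher and 7 lower (all tested genes: 40.7% and 39.9%). Annulus markers had 2 and 6 such calls there, and smooth muscle markers 6 and 1. Summed levels of 6 leukocyte markers (16.4 to 18.4, 31.2 to 34.4 and 11.3 to 12.9 CPM), 7 endothelial markers (0.981 to 1.54, 4.95 to 5.54 and 1.04 to 1.55 CPM) and 6 skeletal muscle markers (4.003 to 5.21, 8.54 to 9.92 and 7.34 to 8.72 CPM) were low in all groups, and 3 erythroid markers reached 0.182 CPM at most. Within the leukocyte list, Cd68 averaged 0.527 CPM in BNPMT, 22.6 CPM in SEN and 0.464 CPM in NC, Cd14 averaged 16.6, 4.04 and 11.4 CPM and Itgam 0, 3.97 and 0 CPM in the same order, and Adgre1 had 1 read in all. Ckm averaged 0 CPM in BNPMT, 0.922 CPM in SEN and 0 CPM in NC. The part of cell make-up in the glycolytic values was not tested.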

How the data were processed

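Per the labels' protocols, RNA was extracted with TRIzol and libraries were made with the VAHTS Universal V6 kit. Per the submitters' processing notes, the tools were fastp, HISAT2 and HTSeq and the build was mRatBN7.2, with no versions or roles. The annotation, the strand setting and the handling of reads that match several places are not stated in the sources used here. The authors deposited whole-number counts per gene for 22324 genes and FPKM values. Deposited FPKM values were recovered from the counts by dividing by gene length and library total (largest relative difference 1.76e-13), and those in the per-sample files matched them (largest difference 1.02e-07). Chi-square per degree of freedom between libraries of a group was 3.41 to 31.6, so none was a duplicate. BNPMT 1 differed most from its group, with 31.6 and 26.5 against BNPMT 2 and 3, which gave 3.41 between them. SEN 1 gave 16.5 and 13.2 against SEN 2 and 3, which gave 6.54 between them.

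Total counts were 41812986, 35094282 and 41971877 in BNPMT, 38391586, 31206834 and 35364168 in SEN, and 34514440, 40485232 and 41873790 in NC. A floor of 3 counts in a library corresponds to 0.0715 to 0.0961 CPM and covers counting error only. Genes were kept with filterByExpr (14956) and tested on the counts with the quasi-likelihood F test of edgeR 4.0.16 in R 4.3.3 (TMM, all 9 libraries in a layout of 3 groups, Benjamini-Hochberg adjustment over all genes tested, threshold 0.05). The SE is the log2 change over the square root of F. Ratios of isoenzymes were taken from FPKM and tested by exact permutation. The count model was also tested on simulated data with few changed genes, as many raised as lowered. That test therefore does not bear on how calls depend on the scale.

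The 20 alternatives were other scalings (DESeq2 size factors, total counts, removal of each library's trend with transcript length), no filter and a filter of 1 CPM in 3 libraries, DESeq2 1.42.0, a replicate block, a fit of the 2 compared groups, limma 3.58.1 on log2(FPKM + 1) and log2(FPKM + 0.1), leaving out each library, and leaving out SEN 1 and BNPMT 1 together, which stand apart in their trend with length. The added constant of limma's scale understates changes of low genes. The members, the gene lists and the alternatives were chosen with earlier results of these data known. Named beside the 10 members were Ldhb and Pfkm, of each list those of its 4 tested members with the smallest adjusted p in SEN against NC that averaged 5 CPM or more, and the 5 genes nearest the mean profile. Some genes that this rule names are not reported here. Promoters come from RefSeq (GRCr8), which is not the build of the counts.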

Additional observations from a re-analysis of the deposited data

How the results depend on the processing

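For single glycolytic enzymes under the 20 alternatives, 193 values in SEN against NC, 183 in BNPMT against SEN and 194 in BNPMT against NC kept their direction and their side of the threshold. A further 1, 8 and 6 lost the call with the same direction, and 6, 9 and 0 changed sign. Those that changed sign were Eno1 in SEN against NC (-0.18 with total counts, and -0.18 with limma on FPKM with 1 or with 0.1 added), Pkm in SEN against NC (-0.046 with total counts, -0.046 and -0.047 with limma), Pfkp in BNPMT against SEN (0.22, 0.20 and 0.21, and 0.12 without the trend with length) and Aldoa in BNPMT against SEN (0.37, 0.25 and 0.37, 0.15 without SEN 1 and BNPMT 1, and -0.28 to 0.13 when 1 library was left out). Members called lower in BNPMT against SEN numbered 1 with total counts, without the trend with length and with both limma scales, against 2 in the main test. Those called lower in BNPMT against NC numbered 0 with total counts and both limma scales, against 1, and 0 to 1 when a library was left out. Of the genes called in SEN against NC, higher ones numbered 3667 with total counts, 3651 and 3673 with limma (1 and 0.1 added), against 5628, and of the genes called in BNPMT against SEN, lower ones numbered 3857, 3782 and 3829, against 5969. FPKM keeps the total-count scale, and these shifts go with the median change of all genes that this scale leaves in place. With a replicate block the members' counts were 8 higher and 2 lower in SEN against NC, 7 and 2 in BNPMT against SEN, and 9 and 1 in BNPMT against NC, as without it, and same-numbered libraries deviated with correlations of -0.53 to 0.19, so the numbers were not taken as pairs. Aldoa had the fewest reads among the members (41 to 137 a library), and the reason for its low count was not tested.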

Other observations

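Some genes near the pathway that the report does not follow were chosen after their values had been seen. Ldhc, the lactate dehydrogenase subunit of testis, had 1 read in the BNPMT libraries together, 255, 180 and 238 reads in the SEN libraries (6.38 ± 0.532 CPM, SD, n = 3) and 0 in the NC libraries. Its level was at least 73.4-fold higher in SEN than a floor of 3 counts per library in NC allows. Pklr, the pyruvate kinase of liver and red cells, had 2 reads in BNPMT, 11, 13 and 14 in SEN and 0 in NC (at least 4.21-fold higher in SEN than in NC). Pck1, the cytosolic enzyme of gluconeogenesis, had 1 read in BNPMT, 28, 20 and 20 in SEN and 0 in NC (at least 7.42-fold higher in SEN than in NC). Paralogs of these genes share sequence, and how reads that match several places were counted is not given in the sources used here.

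Aldoc, the aldolase of brain, was counted above Aldoa in every library and averaged 62.4 ± 3.05 CPM in BNPMT, 13.4 ± 1.17 CPM in SEN and 18.6 ± 0.787 CPM in NC (SD, n = 3 each). It was called higher in BNPMT against SEN (log2 change 1.72) and against NC (1.70), and in SEN against NC not under TMM (-0.02) but lower with total counts (-0.47). Pygl, the liver glycogen phosphorylase, averaged 50.9 ± 2.17 CPM in BNPMT, 11.97 ± 0.509 CPM in SEN and 16.2 ± 1.78 CPM in NC, and was called higher in BNPMT against SEN (1.58) and against NC (1.60). In SEN against NC Pygl was not called under TMM (0.02) and was called lower with total counts (-0.43).

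Of 45 further tested genes of the deposited table's KEGG glycolysis and gluconeogenesis pathway, a list added after the data were seen, 26 were called higher and 9 lower in SEN against NC, 19 and 13 in BNPMT against SEN, and 30 and 4 in BNPMT against NC. With total counts the calls in SEN against NC were 16 higher and 20 lower, and those in BNPMT against SEN 33 and 5, on a scale where 24.5% and 56.9% of all tested genes were called higher and lower in SEN against NC, and 57.3% and 25.8% in BNPMT against SEN. Under TMM these shares of all genes were 37.6% and 38.5%, and 40.7% and 39.9%. In BNPMT against NC they were 26.3% and 26.5% under TMM. Total counts there gave 30 higher and 4 lower (all tested genes: 30.2% and 22.5%). This list overlaps the lists above, as they also name genes of glycolysis, and it holds the M2 pyruvate kinase-like row, so its counts are not independent of theirs.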
